A study of Mus musculus with 36 samples.

Results

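The cytosolic heat shock genes are 10 of the 19879 genes listed in the deposited tables, taken by symbol alone: Hspa1a, Hspa1b, Hspa8, Dnajb1, Hsph1, Hsp90aa1, Hsp90ab1, Hspb1, Bag3 and Hsf1. All 10 were found in the tables. Poly(A) RNA came from wild-type BV-2, a mouse microglial cell line made permanent by an oncogene-carrying virus, and was sequenced as 36 libraries, 3 in each of 12 groups. At 4 h and at 24 h the cells received DMSO alone, EtOH (ethanol) alone, lipopolysaccharide (LPS, a bacterial cell wall component that activates microglia) at 600 ng/mL, or the same LPS together with 1 of 3 compounds. These were 30 µM of the diester dimethyl fumarate (DMF), 30 µM of the monoester monomethyl fumarate (MMF), or 6 µM of the plant cannabinoid cannabidiol (CBD). Vehicles made up 0.2% of the medium, and serum was lowered in every group just before treatment. Which vehicle the LPS-only cells received was not given in the sources used here, so a compound and its vehicle cannot be told apart in the comparisons with LPS alone.

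Heat shock proteins of the cytosol are molecular chaperones that keep newly made or damaged proteins from aggregating. HSP70 holds exposed stretches of a client protein, a J-domain partner (HSP40) delivers the client and starts ATP hydrolysis, and a nucleotide exchange factor such as HSP110 or BAG3 releases it. HSP90 acts later on kinases, receptors and other clients, and small heat shock proteins hold unfolded proteins without ATP. The transcription factor HSF1 is kept inactive by chaperones and, when misfolded protein occupies them, assembles into trimers that bind heat shock elements, inverted repeats of GAA in the promoters of these genes. Its activity is set largely after translation, so its own mRNA need not move with its targets. DMF is an electrophile that reacts with protein cysteines, and MMF is its hydrolysis product, which lacks 1 of the ester methyl groups.

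Counted reads per library ranged from 14110424 to 26676607. All 11 microglia or macrophage markers examined had a median of at least 10 reads per library, and their summed normalised read count ranged from 28773 to 51188. Of the neuronal markers with a row in the tables Rbfox3 had at most 1 read and Tubb3 at most 6, while Map2 had 86 to 334 reads. The astrocyte markers Gfap, Aldh1l1 and Slc1a2 had at most 22 reads. Of the oligodendrocyte markers Mog and Olig2 had at most 1 read, and Mbp, which also has transcripts outside oligodendrocytes, had 664 to 2081. Normalised read counts below are reads scaled jointly over the 36 libraries by median-of-ratios factors. Fold changes come from limma on log2 of the authors' normalised count plus 1 within each pair of groups, and genes with a Benjamini-Hochberg adjusted p under 0.05 over all genes tested are termed called. The labels do not say whether the 3 libraries of a group came from separate cultures, so the p-values measure the spread between these libraries. In bulk RNA, fewer cells of a state and less RNA per cell cannot be told apart.

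The promoters of the members described first below differ in the exact pairs of heat shock units they hold, and 4 are printed to show this. RefSeq sequences (GRCm38.p6) were matched for 6 of the 10 members in 8 entries. Entries for Hspa8, Hsp90aa1, Hsp90ab1 and Hsf1 were not used here. Each line is the 250 bases before the annotated start, 5′ to 3′ on the gene's strand. Capitals mark the 3 motifs found in a search of both strands, which are pairs of heat shock units written GAANNTTC or TTCNNGAA and the core of the antioxidant response element, TGACNNNGC or its reverse complement GCNNNGTCA.
Hsph1, chr5:149636337-149636586, minus strand: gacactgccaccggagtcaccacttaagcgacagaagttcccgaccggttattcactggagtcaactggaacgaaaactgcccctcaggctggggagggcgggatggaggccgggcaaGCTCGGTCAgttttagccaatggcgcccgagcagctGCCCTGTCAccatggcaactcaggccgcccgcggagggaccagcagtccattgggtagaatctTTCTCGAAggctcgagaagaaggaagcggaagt
Dnajb1, chr8:83607925-83608174, plus strand: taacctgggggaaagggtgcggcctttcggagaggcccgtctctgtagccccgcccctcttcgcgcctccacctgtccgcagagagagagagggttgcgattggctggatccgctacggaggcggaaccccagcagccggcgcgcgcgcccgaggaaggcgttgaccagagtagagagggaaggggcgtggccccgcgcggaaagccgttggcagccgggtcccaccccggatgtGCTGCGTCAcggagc
Hspb1, chr5:135887669-135887918, plus strand: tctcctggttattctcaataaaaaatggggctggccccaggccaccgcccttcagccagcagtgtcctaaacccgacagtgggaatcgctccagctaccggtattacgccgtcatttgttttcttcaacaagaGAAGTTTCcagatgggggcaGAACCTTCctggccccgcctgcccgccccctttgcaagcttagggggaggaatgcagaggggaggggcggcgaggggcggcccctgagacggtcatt
Hspa1b, chr17:34959239-34959488, minus strand: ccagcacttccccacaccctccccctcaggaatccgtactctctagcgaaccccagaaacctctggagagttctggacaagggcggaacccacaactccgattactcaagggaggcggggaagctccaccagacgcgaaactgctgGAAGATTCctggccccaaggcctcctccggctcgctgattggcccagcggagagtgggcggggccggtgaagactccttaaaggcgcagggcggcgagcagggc

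The Hsph1 promoter held 1 TTCNNGAA pair, 33 to 26 bases before the start, and 2 antioxidant cores. The Hspb1 promoter held 2 GAANNTTC pairs, at 117 to 110 and 97 to 90 bases before the start. The Dnajb1 sequence held no pair of heat shock units in this window and 1 antioxidant core. Hspa1b and Hspa1a each held 1 GAANNTTC pair at 104 to 97 bases, and their 250 bases differed at 3 positions. The Bag3 window held neither motif. Among 32851 mouse promoters of the same length, 6.69% held GAANNTTC, 7.17% held TTCNNGAA and 10.2% held an antioxidant core. Both heat shock patterns are their own reverse complements and do not share bases with the antioxidant core in these sequences. A pair extended after 2 bases by a further alternating unit, which was the longest form searched, was in 0.466% of all promoters and in none of these entries. Only exact letters were searched, so a unit with a changed base was not counted. A match is a description of letters and not of binding.

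The stress-inducible HSP70 genes Hspa1a (chr17:35188166-35191132, GRCm39, minus strand) and Hspa1b (chr17:35175412-35178214, minus strand), neighbours on chromosome 17 with 1 exon each, were almost without reads in every group. Hspa1a had 25 reads over all 36 libraries and 0 in 21 of them, and no library held more than 4. Hspa1b had 20 reads in all and 0 in 22 libraries, with at most 3 in any. With DMF and LPS at 4 h, the group in which the other members were highest, Hspa1a had 0, 1 and 1 reads and Hspa1b had 0, 0 and 0. A count of 0 allows up to 0.213 RPM (counted reads scaled to a library of a fixed size) in the smallest library and 0.112 in the largest, counting error only. Neither gene passed the filter on low values in any comparison, so neither was tested and no fold change is given. Of the 150-base windows along Hspa1a, 39.7% occur identically elsewhere in the mouse genome, and 40.5% of those along Hspa1b do. How reads that map to several places were treated is not given in the sources used here, but the remaining windows of both genes were unique.

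The other 8 members covered a wide range. Divided by the length of the merged exons, the mean normalised read count per kilobase was highest for Hsp90ab1 (11669), followed by Hsp90aa1 (3611), Hspa8 (2843), Hsph1 (460), Bag3 (381), Dnajb1 (293), Hsf1 (142) and Hspb1 (10.3). Divided by the length of the canonical transcript instead, Hspa8 (10308) lay above Hsp90aa1 (4709), and the other 8 of the 10 members kept their place. Identical 150-base windows elsewhere in the genome made up 56.0% of Hspa8, 43.7% of Hsp90aa1 and 52.5% of Hspb1, and none of the other 5, so the levels of those 3 are the least certain. The strand setting of the counting is not given in the sources used here either. Hsf1 shares 2486 exon bases with Dgat1 and 522 with Bop1 on the opposite strand, and Hsp90ab1 shares 266 with Slc35b2, so reads there could not be told apart without strand. Together the 10 genes took 0.507% to 0.88% of all reads by group mean, lowest in LPS with CBD at 24 h and highest in LPS with DMF at 4 h, where LPS alone had 0.719%.

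**Figure D1:**
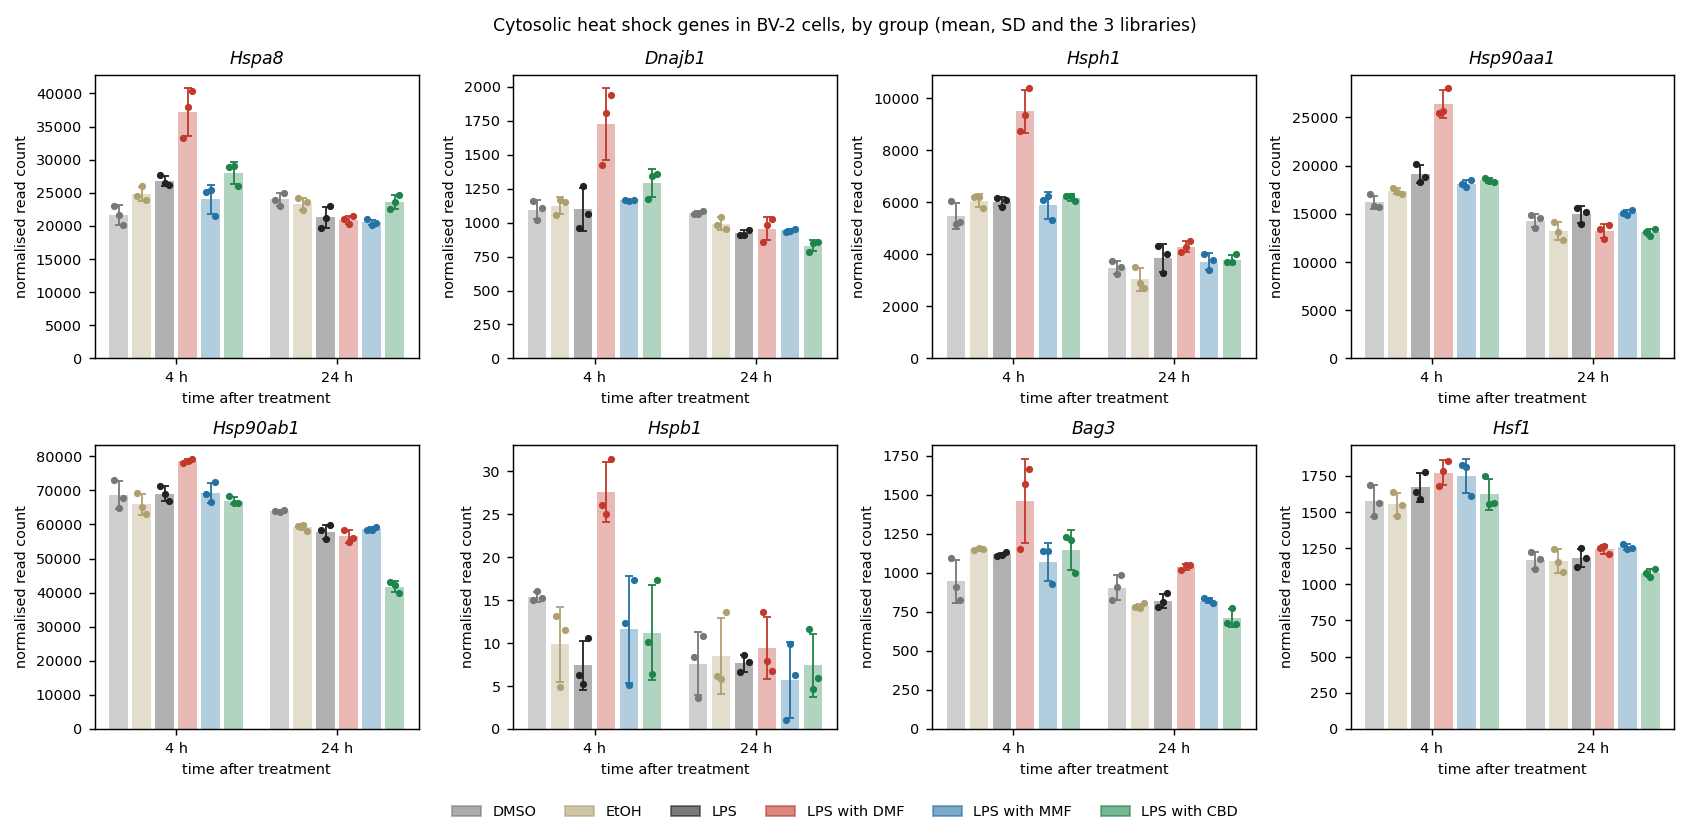
Normalised read counts (vertical axis, from 0) of the 8 members with reads in all groups, for 6 treatments at 4 h and 24 h. Bars are means, error bars SD and points the 3 libraries; the bar of LPS with DMF at 4 h is the highest of the 12 in each panel, from 78642 for Hsp90ab1 to 27.6 for Hspb1.

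Of the 3 compounds at the doses given, which were not matched for CBD, DMF at 4 h went with the most changes of the members. Hsph1, Dnajb1, Hspa8 and Hsp90aa1 rose against LPS alone, by 1.38-fold to 1.57-fold, while Bag3, Hsp90ab1 and Hsf1 did not pass the test. That is 4 of 7 members higher and 0 lower, beside 4.55% of all 11371 genes tested called higher and 6.51% called lower. All 7 estimates were above 0, with a median log2 fold change of 0.463 against 0.006 for all genes tested. In 6 of the 7 every DMF library lay above every LPS library, beside 30.1% of all genes without overlap in either direction. Hspb1 reached the lowest level tested in this comparison only through its DMF libraries, so it had to differ. It is left out of these counts and of every count of 7 members below, and its values are given as a description. In the same comparison 4 of 11 microglia or macrophage markers were called lower and 0 higher, and the part of cell state in the members' change was not tested.

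Hsph1, the HSP110 exchange factor of HSP70 (chr5:149537752-149559841, minus strand, 18 exons), had normalised read counts of 8756, 9355 and 10389 with DMF and 6147, 5815 and 6104 with LPS alone at 4 h. The lowest DMF library lay well above the highest library of any other 4 h group, which was 6255. It rose by a log2 fold change of 0.65 ± 0.09 (SE, n = 3 and 3, adjusted p = 0.0019, limma). It was the 1 member that stayed called in each of the 6 fits that left out a library, at adjusted p of 0.00264 to 0.015.

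Dnajb1, the HSP40 that delivers clients to HSP70 (chr8:84334822-84339282, plus strand, 3 exons), reached 1427, 1809 and 1940 with DMF against 958, 1273 and 1062 with LPS. The DMF libraries were spread over more than 500 normalised reads, and the lowest of them was still above all LPS libraries. Dnajb1 rose by 0.65 ± 0.14 on the log2 scale (adjusted p = 0.0192, limma). The call was lost when DMF replicate 3 (adjusted p = 0.0933), LPS replicate 1 (0.0671) or LPS replicate 3 (0.0828) was left out.

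Hspa8, the constitutive HSP70 known as HSC70 (chr9:40712280-40721383, plus strand, 9 exons), had 33264, 37923 and 40403 normalised reads with DMF and 27680, 26484 and 26197 with LPS. Its groups did not overlap. Hspa8 rose by 0.47 ± 0.10 on the log2 scale (adjusted p = 0.0182, limma), and the call was lost without DMF replicate 2 (0.0556), DMF replicate 3 (0.107) or LPS replicate 3 (0.105).

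Bag3, an exchange factor that steers HSP70 clients to selective autophagy (chr7:128125340-128148705, plus strand, 4 exons), had 1151, 1565 and 1662 with DMF and 1106, 1116 and 1130 with LPS at 4 h. The first DMF library stood close to the LPS libraries and the other 2 well above them. The estimate was 0.36 ± 0.13 (95% interval 0.06 to 0.67, adjusted p = 0.129, limma) and did not pass. Without DMF replicate 1 the adjusted p was 0.0064.

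Hsp90aa1, the stress-inducible HSP90 (chr12:110657039-110669162, minus strand, 11 exons), had 25488, 25675 and 28049 with DMF against 20124, 18325 and 18853 with LPS. The groups were wide apart compared with their SDs of 1428 and 925. The log2 fold change was 0.46 ± 0.09 (adjusted p = 0.01, limma), and it was not called without DMF replicate 3 (0.0688) or LPS replicate 3 (0.0707). Hsp90ab1, the constitutive and most abundant HSP90 (chr17:45878701-45884197, minus strand, 11 exons), had 77940, 78646 and 79340 against 71359, 69055 and 66758. Its libraries did not overlap either, but the estimate was smaller, 0.18 ± 0.10 (95% interval -0.03 to 0.40, adjusted p = 0.282, limma).

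Hspb1, the small heat shock protein HSP27 (HSP25 in mouse; chr5:135916773-135918417, plus strand, 3 exons), was scarce. It had 26.1, 25 and 31.5 normalised reads with DMF and LPS at 4 h and 6.33, 5.27 and 10.6 with LPS alone, and no library of the study had more than 30 reads before scaling. The DMF libraries were the 3 highest of all 36. The log2 fold change of 1.79 ± 0.35 rests on these few reads and is given without a test. Hsf1, the transcription factor itself (chr15:76361622-76386113, plus strand, 13 exons), had 1679, 1785 and 1856 with DMF and 1641, 1589 and 1780 with LPS. The groups overlapped, and the estimate was 0.08 (95% interval -0.11 to 0.28, adjusted p = 0.614).

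Leaving out 1 library at a time changed how many members were called with DMF at 4 h. Hsph1 alone was called when DMF replicate 3 or LPS replicate 3 was dropped, and 3 of the 7 were called after dropping DMF replicate 2 or LPS replicate 1. With both libraries numbered 3 left out, 0 of the same 7 members tested were called, and the estimate of Hsph1 was 0.60 (adjusted p = 0.0891).

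**Figure D2:**
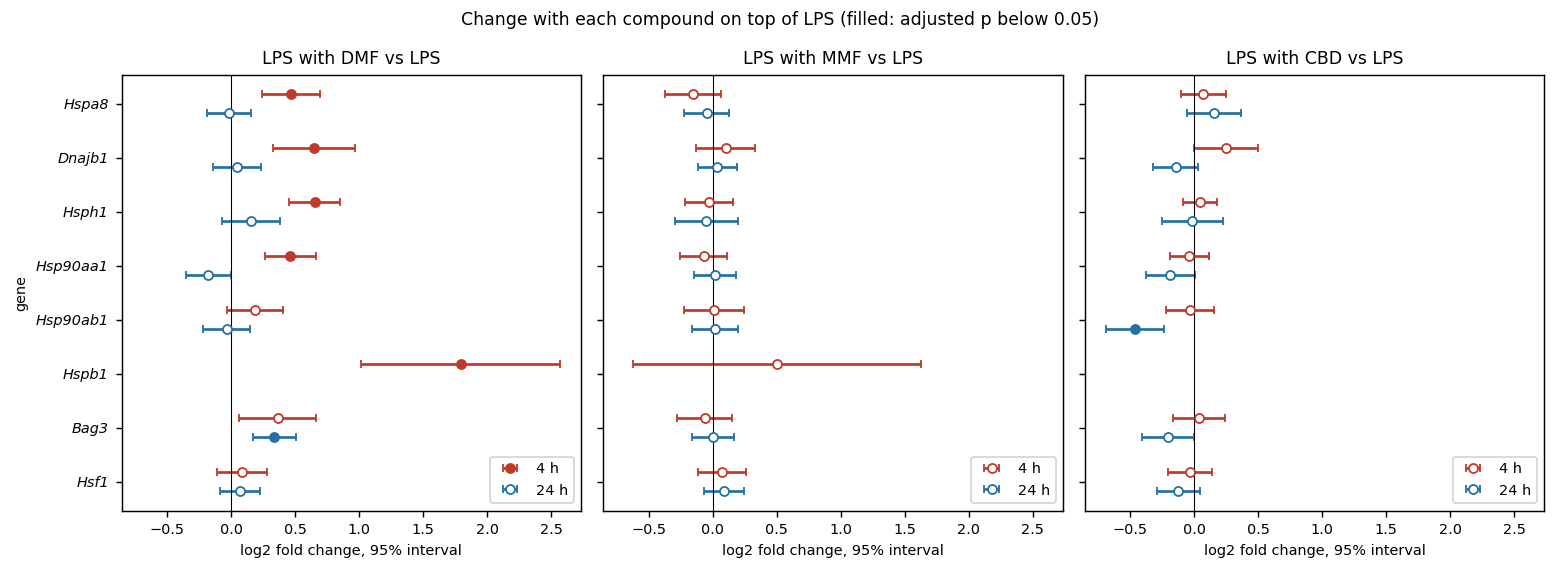
Log2 fold change (horizontal axis, shared by the 3 panels) of each compound with LPS against LPS alone, at 4 h (red) and 24 h (blue), with 95% intervals; filled points have an adjusted p below 0.05. The filled points are 5 members with DMF at 4 h, of which Hspb1 passed the filter only through that group, Bag3 with DMF at 24 h and Hsp90ab1 with CBD at 24 h.

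With MMF at the same 30 µM no change of a member was detectable at 4 h. Of 8 members, Hspb1 included, 0 were called against LPS alone, by limma, edgeR and DESeq2 alike, and 0 had an unadjusted p below 0.05, where 0.122% of all genes were called. The estimates ran from -0.16 for Hspa8 (95% interval -0.38 to 0.06) to 0.50 for Hspb1 (-0.63 to 1.63). The interval of Hsph1 was -0.22 to 0.16. For MMF, Hspa8 had 25165, 25376 and 21461 normalised reads, all below the LPS libraries, and Hsph1 had 6089, 6255 and 5306, which lay on both sides of them.

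DMF and MMF, which differ by 1 methyl ester, were compared directly at the matched dose. At 4 h, 4 of 7 members were higher with DMF than with MMF, beside 3.37% of all genes. Hsph1 differed by 0.68 (95% interval 0.46 to 0.90, adjusted p = 0.00351), Hspa8 by 0.62 (0.38 to 0.87, adjusted p = 0.0081), Dnajb1 by 0.55 (0.29 to 0.81, adjusted p = 0.0176) and Hsp90aa1 by 0.54 (0.35 to 0.72, adjusted p = 0.00497), all by limma. Dnajb1 lost its call when DMF replicate 3 or any 1 of the MMF libraries was left out (adjusted p up to 0.0877), and the other 3 kept theirs in each such fit. Not called were Bag3 (0.43, 0.11 to 0.75), Hsp90ab1 (0.18, -0.02 to 0.38) and Hsf1 (0.01, -0.19 to 0.21). The estimate of Hspb1 was 1.30 (0.37 to 2.23). This comparison shares its DMF libraries with the one against LPS alone.

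CBD was given at 6 µM, so its values stand beside those of the fumarates without a comparison. At 4 h, 0 of 7 tested members were called against LPS alone by limma, edgeR or DESeq2, with 0 at an unadjusted p below 0.05, beside 0.00875% of all genes called. Dnajb1 had 1173, 1343 and 1356 normalised reads against 958, 1273 and 1062, which overlapped. Its estimate was 0.25 (95% interval -0.01 to 0.50). The Hsph1 interval was -0.09 to 0.18. Hspb1 did not pass the filter there.

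At 24 h the 1 member called with DMF was Bag3, the exchange factor that had missed the threshold at 4 h. Bag3 had 1015, 1049 and 1050 normalised reads with DMF and 781, 814 and 868 with LPS, without overlap. It rose by 0.34 ± 0.08 on the log2 scale (adjusted p = 0.00955, limma), and without DMF replicate 3 the adjusted p was 0.053. It was 1 of 7 tested members higher, beside 11.9% of all genes called higher, a share near the background. Against MMF at 24 h, Bag3 was again the 1 member called of 7, higher by 0.34 (95% interval 0.19 to 0.48, adjusted p = 0.00704) beside 10.1% of all genes, and it stayed called in each of the 6 fits without 1 library.

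The other members had estimates from -0.18 for Hsp90aa1 to 0.16 for Hsph1 with DMF at 24 h. Map2, 1 of the neuronal markers, was called lower in this comparison (-1.48, adjusted p = 0.00255, limma). The other neuronal markers had at most 6 reads in any library or were not listed. The part of cell state in the members' values was not tested here either. Hsp90aa1 had 13376, 12402 and 13893 with DMF against 15628, 13995 and 15226 with LPS. The DMF libraries were lower without overlap, but the change did not pass (adjusted p = 0.121). The libraries paired by replicate number here, and with the number as a block Hsp90aa1 was called lower at 24 h against LPS (adjusted p = 0.0245) and against MMF (adjusted p = 0.00497). In the blocked fit Hsph1 was also called higher than with MMF (0.21, adjusted p = 0.0125). The shares of all genes called in these blocked fits are not given here, so the blocked calls stand without a background. MMF against LPS at 24 h called 0 of 7 members, by limma, edgeR and DESeq2, with 0 at an unadjusted p below 0.05. All genes also gave 0.0% called there, and the members' estimates ran from -0.05 to 0.09.

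CBD at 24 h lowered Hsp90ab1 and no other member in the fit without a block. Hsp90ab1 had 43223, 42153 and 39986 normalised reads with CBD against 58336, 55660 and 59724 with LPS alone, the lowest 3 values of the gene in the study. The log2 fold change was -0.47 ± 0.10 (0.724-fold, adjusted p = 0.00441, limma), and it was called in each of the 6 fits without 1 library. This was 1 of 7 members lower beside 24.8% of all genes called lower, so the members were called no more often than the background. For 5 of 7 the CBD libraries lay wholly below the LPS libraries and for 0 wholly above. Of all genes 58.7% were without overlap in either direction, and the share in 1 direction is not given here. Estimates were below 0 for 6 of 7 members, with a median of -0.145 against -0.002 for all genes tested. Hsp90aa1 had an estimate of -0.19 (adjusted p = 0.0913) and Bag3 of -0.21 (adjusted p = 0.0821). With the replicate number as a block Bag3 was also called (adjusted p = 0.0495), and the share of all genes called in that fit is not given here. Hspa8 had an estimate of 0.15 (95% interval -0.06 to 0.36).

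Whether each compound acted differently at 24 h than at 4 h was tested directly as the difference of its effects. For DMF the effect on 4 of 7 members was lower at 24 h, beside 8.15% of all 11909 genes. Hsp90aa1 differed most surely, by -0.65 ± 0.12 (adjusted p = 0.00246, limma), in each of the 12 fits without 1 library. Dnajb1 differed by -0.61 (adjusted p = 0.0262), Hsph1 by -0.50 (0.0249) and Hspa8 by -0.50 (0.0206), and the estimate of Hspb1 was -1.59. Of the 12 fits, Hspa8 was called in 8, Dnajb1 in 7 and Hsph1 in 6, and LPS at 24 h replicate 3 and DMF at 4 h replicate 3 were among the libraries whose loss ended each of these 3 calls. For Bag3 the difference was -0.03 (95% interval -0.37 to 0.30). For MMF 0 of 8 members differed between times (0.0% of all genes; 0 at an unadjusted p below 0.05, and 0 by edgeR and DESeq2). For CBD the effect was lower at 24 h for Dnajb1 (-0.39, adjusted p = 0.0436) and Hsp90ab1 (-0.42, adjusted p = 0.0252), 2 of 7 beside 16.5% of all genes. Of 12 fits without 1 library, Dnajb1 was called in 2 and Hsp90ab1 in 8, and both were lost without LPS at 4 h replicate 3 (adjusted p = 0.0916 and 0.0679) or LPS at 24 h replicate 3 (0.0901 and 0.0629).

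With LPS alone at most 1 member was called in each comparison with a vehicle. The vehicle libraries are numbered 4 to 6 and the LPS libraries 1 to 3, so these comparisons share no replicate number. LPS and whatever the numbers mark cannot be told apart in them. At 4 h Hspa8 was higher than with DMSO, with 27680, 26484 and 26197 normalised reads against 23077, 21640 and 20097. The log2 fold change was 0.31 ± 0.08 (adjusted p = 0.038, limma), 1 of 7 members beside 7.7% of all genes, and the call was lost in 5 of the 6 fits without 1 library (adjusted p up to 0.18). Against EtOH at 4 h, 0 of 8 members were called by limma, edgeR or DESeq2, with 0 at an unadjusted p below 0.05, beside 10.2% of all genes. The EtOH libraries of Hspa8 stood at 24530, 26022 and 23935, nearer to LPS than those of DMSO.

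At 24 h no member was called against DMSO by limma, edgeR or DESeq2, with 1 at an unadjusted p below 0.05 (Dnajb1, -0.21, adjusted p = 0.0583), where 22.7% of all genes were called. Against EtOH, Hsph1 was called higher with LPS by 0.36 ± 0.12 (adjusted p = 0.0474), beside 10.8% of all genes. Its values were 4327, 3283 and 4011 against 3525, 2895 and 2688 and overlapped, and the call was lost in 4 of 6 fits without 1 library (adjusted p up to 0.174). DMSO and EtOH themselves gave 0 called members of 8 at 4 h by limma, edgeR or DESeq2, 2 of them at an unadjusted p below 0.05, and 0.0% of all genes. These libraries paired by number, and in the blocked fit Hspa8 (-0.19, adjusted p = 0.00422) and Bag3 (-0.29, adjusted p = 0.0202) were called lower in DMSO at 4 h. The 0.0% of all genes belongs to the fit without the block. The share with the block is not given here, so these 2 calls stand without a background. At 24 h 0 of 7 members were called between the vehicles by limma, with or without the block, edgeR or DESeq2, with 1 at an unadjusted p below 0.05 (Bag3, 0.19), beside 0.00854% of all genes.

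In every treatment the members that changed between 4 h and 24 h were lower at the later time. Of the 7 members without Hspb1, 3 were lower in DMSO, 5 in EtOH, 5 in LPS, 7 in LPS with DMF, 6 in LPS with MMF and 7 in LPS with CBD, and 0 were higher. The shares of all genes called lower were 25.8%, 29.5%, 24.3%, 29.1%, 24.3% and 31.6% in the same order, and between 24.7% and 31.6% were called higher. Hsph1, Hsf1 and Hsp90aa1 fell in all 6 treatments. Hsf1 changed by much the same amount in each, from -0.44 in EtOH to -0.60 in LPS with CBD. Its 24 h libraries lay between 1049 and 1278 and its 4 h libraries between 1471 and 1856. Time after treatment and time in lowered serum cannot be told apart. Single libraries decided the weaker calls. Hsp90aa1 in DMSO (adjusted p up to 0.134), Dnajb1 in EtOH (0.116), Hspa8 in LPS (0.0631) and in LPS with CBD (0.0879) and Hsp90ab1 in LPS with MMF (0.118) were each lost without at least 1 library.

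**Figure D3:**
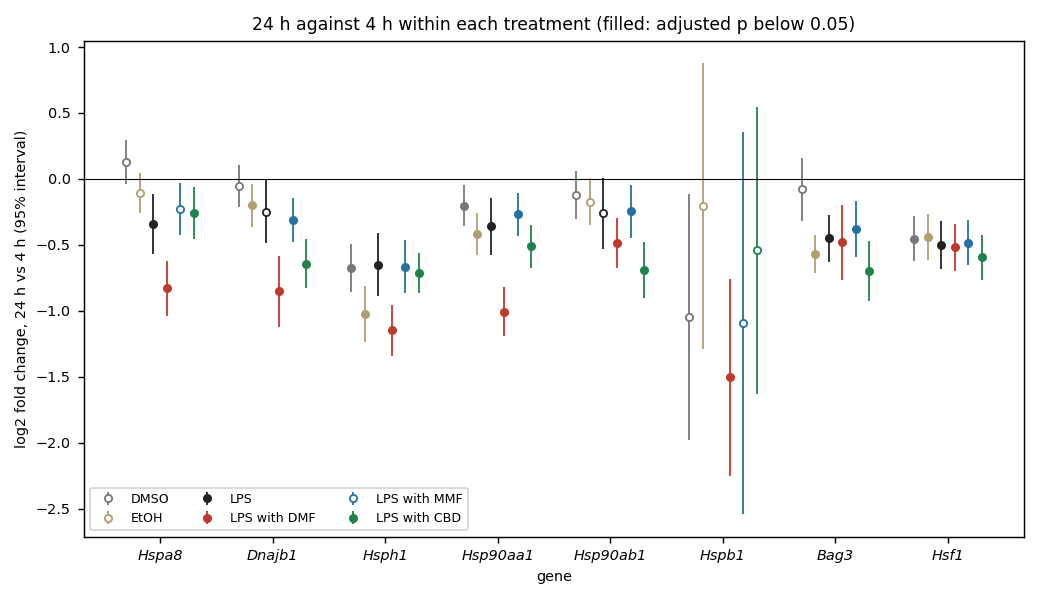
Log2 fold change at 24 h against 4 h (vertical axis, 95% intervals) of 8 members in 6 treatments; filled points have an adjusted p below 0.05. All filled points lie below 0, and those of LPS with DMF are the lowest for Hspa8 (-0.83), Dnajb1 (-0.85), and Hsph1 (-1.15).

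Hsp90aa1 fell least in DMSO (-0.20, adjusted p = 0.0324) and most in LPS with DMF (adjusted p = 9.65e-06). Hsph1 fell by 0.65 on the log2 scale in LPS (adjusted p = 0.000974), by 1.02 in EtOH (adjusted p = 1.99e-05) and by 1.15 in LPS with DMF (adjusted p = 5.86e-06). Its EtOH libraries went from 6203, 6206 and 5764 to 3525, 2895 and 2688. Hspa8 was not called in DMSO (0.13, adjusted p = 0.176) or EtOH (-0.11, adjusted p = 0.212) and fell by 0.83 in LPS with DMF (adjusted p = 4.28e-05). In LPS with MMF Hspa8 had an adjusted p of 0.0522, and with the replicate number as a block it was called (adjusted p = 0.0174). Hsp90ab1 had its steepest fall in LPS with CBD, by 0.69 (adjusted p = 0.000148), while in DMSO, EtOH and LPS it was not called by limma within the pair. In LPS it was called lower by DESeq2 (adjusted p = 0.00592) and by limma with all 36 libraries in 1 fit (0.00136). The same 2 alternatives called it lower in EtOH (0.0337 and 0.0431). Differences between treatments in these falls were tested only for the compounds against LPS, as the differences of effects given above.

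The reads on the 2 HSP90 genes were set against each other within each library, which removes the scaling between libraries. At 4 h the ratio of Hsp90ab1 to Hsp90aa1 reads was 4.23 ± 0.12 in DMSO, 3.8 ± 0.12 in EtOH, 3.62 ± 0.13 in LPS and 2.98 ± 0.13 in LPS with DMF (mean and SD, n = 3). The DMF libraries (3.06, 3.06 and 2.83) were the lowest of the 18 at that time. At 24 h the ratio was 3.88 ± 0.13 in LPS, 4.28 ± 0.21 in LPS with DMF and 3.2 ± 0.19 in LPS with CBD. The DMF libraries (4.37, 4.42 and 4.04) then lay above the LPS libraries (3.73, 3.98 and 3.92), and the CBD libraries (3.29, 3.33 and 2.98) were the lowest at 24 h. The ratios are a description and were not tested. An exact two-sided permutation test of 3 against 3 libraries cannot give a p below 0.1.

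**Figure D4:**
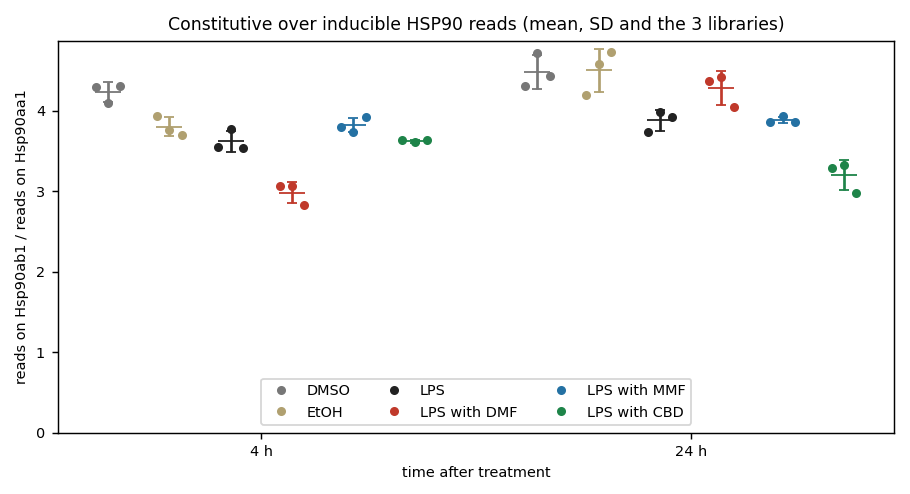
Reads on Hsp90ab1 divided by reads on Hsp90aa1 (vertical axis, from 0) in each library, by treatment and time, with mean and SD. LPS with DMF is lowest at 4 h (mean 2.98) and LPS with CBD at 24 h (mean 3.2).

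The wider chaperone network was read from lists of genes outside the 10 members. With DMF at 4 h, 3 of 15 tested HSP70 partners rose and 0 fell, with a list median of 0.186 against 0.006 for all genes tested and 4.55% of all genes called higher. They were the J-domain proteins Dnajb4 (1.30 ± 0.13, adjusted p = 0.000478), Dnajb2 (0.54, adjusted p = 0.0398) and Dnaja2 (0.33, adjusted p = 0.0283). The change of Dnajb4 was larger than that of any member except Hspb1. Of 11 HSP90 cochaperones 1 rose, Ptges3 (p23, which stabilises HSP90 on its clients; 0.34, adjusted p = 0.0423). In the cytosolic chaperonin CCT 0 of 8 subunits were called, and in the mitochondrial (8) and endoplasmic reticulum (11) lists 0 were called, with smallest adjusted p of 0.455 for Cct2, 0.244 for Hspe1 and 0.106 for Dnajb9. Of other heat-inducible genes 0 of 5 were called, the nearest being Dedd2 (0.75, adjusted p = 0.0502). The small heat shock genes Hspb6 and Hspb7 were tested and not called, nor were the 3 tested genes of other heat shock factors and their regulator (nearest Hsf2, 0.25, adjusted p = 0.221), while Cryab (at most 3 reads per library) and Hspb8 (at most 2) were nearly silent.

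At 24 h the lists held changes in both directions, and with DMF 13.2% of all genes were called lower and 11.9% higher. With DMF, 3 HSP70 partners fell (Stip1 -0.53, Bag2 -0.30 and St13 -0.28) and 1 rose (Dnaja2 0.22) of 16 tested, both near the share of all genes. Likewise 3 of 11 HSP90 cochaperones fell (Fkbp4 -0.52, Ppid -0.42 and Ppp5c -0.31), and 5 of 8 CCT subunits fell with 0 rising. The Stip1 protein links HSP70 to HSP90. Higher were 3 of 11 endoplasmic reticulum chaperones, Dnajb9 (1.14, adjusted p = 0.000704), Hspa5 (BiP; 0.77, adjusted p = 0.00162) and Hyou1 (0.38, adjusted p = 0.0134), and the heat-inducible Zfand2a (0.70, adjusted p = 0.000583) and Ubb (0.56, adjusted p = 0.00141).

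With CBD at 24 h, where 24.8% of all genes were called lower and 23.9% higher, all 8 CCT subunits fell, with a median of -0.417 against -0.002 for all genes tested, and 6 of 11 HSP90 cochaperones fell, led by Fkbp5 (-0.96) and Fkbp4 (-0.67), with 3 rising. Hsp90ab1 also fell. Of 16 HSP70 partners 4 fell, Stip1 (-0.49), Bag2 (-0.47) and Hspa4 (-0.35) among them, and 1 rose, the HSP110-type Hspa4l (0.70), and the share that fell was near that of all genes. In the endoplasmic reticulum list 7 of 11 rose and 0 fell, led by Dnajb9 (1.80, adjusted p = 4.89e-05) and Hspa5 (1.05, adjusted p = 0.000574). Lonp1 (0.70) and Hspa9 (0.58) led 3 of 8 mitochondrial chaperones that rose, with Trap1 falling by 0.32. Zfand2a rose by 1.62 (adjusted p = 3.26e-06) and Ubb by 0.93, while 0 of 7 tested members were called higher in the same comparison. With MMF 0 genes of these 8 lists were called at either time by limma.

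**Figure D5:**
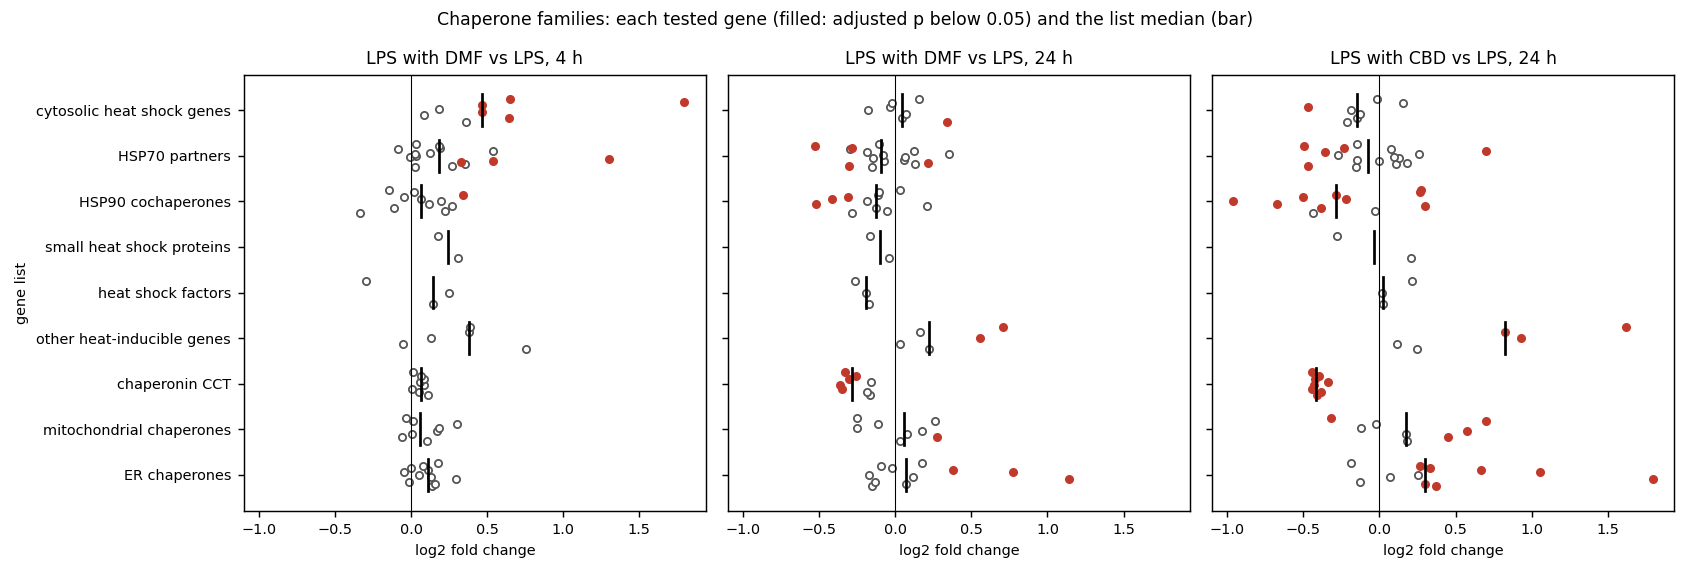
Log2 fold change (horizontal axis, shared) of each tested gene in 9 chaperone lists for LPS with DMF against LPS at 4 h and 24 h and LPS with CBD against LPS at 24 h; filled points have an adjusted p below 0.05 and bars are list medians. The cytosolic heat shock genes stand to the right with DMF at 4 h (median 0.465 with Hspb1), and the CCT subunits to the left at 24 h with DMF (-0.281) and CBD (-0.417).

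Over the 12 group means of log2 normalised read counts, the members followed each other to different degrees. Pearson's r was 0.93 between Hsph1 and Hsp90aa1, 0.91 between Dnajb1 and Hsp90aa1, 0.91 between Hsph1 and Hsf1 and 0.55 between Hspa8 and Hsp90ab1. These r values describe 12 groups that share the 4 h to 24 h difference and carry no test. Among 10096 genes with a mean of at least 50, the non-members most like Hsph1 were Kpna1 (r = 0.991), Rwdd4a (0.987) and Nufip2 (0.984). Those most like Hsp90aa1 were Psma5 (0.978), Pitpnb (0.968) and Lin7c (0.967), and those most like Dnajb1 were Rbm6 (0.95), Lin7c (0.946) and Tob2 (0.943). For Hspa8 they were Sbds (0.944), Txndc9 (0.94) and Psmc6 (0.914), for Bag3 Ube2k (0.968), Ccnt1 (0.963) and Ppp1r15b (0.961), for Hsp90ab1 Klf16 (0.98), Arl6ip5 (0.98) and Ccdc116 (0.977), and for Hsf1 Psme3 (0.99), Emc6 (0.985) and Cltb (0.985).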

How the data were processed

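Per the labels and methods, the authors trimmed paired-end reads (cutadapt 4.4, Trimmomatic 0.39), mapped them to the GRCm39 build by HISAT2 2.2.1, assigned them to genes by HTSeq 2.0.3 and normalised by DESeq2 1.40.2. They deposited 30 tables, 1 per pair of groups, whose library columns hold a signal, the read count divided by the DESeq2 size factor (0.75 to 1.53). The authors also deposited, for each pair, a DESeq2 log2 fold change, its standard error, a test score (the Wald statistic), a p-value and an adjusted p-value, none of which was used. Whole reads were recovered: multiplied by the size factor, 100% of 3127002 values were whole to a tolerance of 0.01 read, and 0 of 2446332 values shared between tables differed. No 2 libraries of a group were copies (chi-square per degree of freedom 4.6 to 29.1).

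Genes with a deposited value of at least 10 in at least 3 libraries were tested with limma 3.58.1 (trend, R 4.3.3) on log2 of the value plus 1, using the 6 libraries of a comparison. Interactions used 12 libraries. Alternatives were a pseudocount of 5, no filter, edgeR 4.0.16 (quasi-likelihood, TMM) and DESeq2 1.42.0 on recovered reads, limma with TMM scaling for the interactions, all 36 libraries in 1 fit, a replicate block and leaving out each library. In simulated data for DMF against LPS at 4 h (11270 genes), limma recovered 92.2% of log2 changes of 1 and 34% of changes of 0.5. Changes were put on 103 and 97 genes, none of them scarce. In the real comparison 11.1% of genes were called, so these rates need not carry over to the members. Levels per kilobase used GENCODE M39 merged exons.

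All members were named. Other lists name at most 4 genes a comparison, those with the largest called changes, or the smallest adjusted p where none was called. The members, lists and tests were chosen with earlier results of these data known. Replicate numbers are shared in 19 comparisons, which are all but those of LPS alone against a vehicle. They were taken as pairing libraries in the 10 where every same-numbered pair's deviations correlated above 0.1 (r over all 19 from 0.008 to 0.746), a check from the data, since the labels do not say what a number marks. The alternatives that used the canonical transcript length, or left out both libraries numbered 3, were added after the data were seen.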

Additional observations from a re-analysis of the deposited data

Results flagged for a closer look

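A difference between a compound's effect at 24 h and at 4 h passed the interaction test for 4 of 7 members with DMF, 0 of 7 with MMF and 2 of 7 with CBD. With DMF these were Hspa8 (-0.495 on the log2 scale, DMF effect at 24 h minus that at 4 h), Dnajb1 (-0.609), Hsph1 (-0.502) and Hsp90aa1 (-0.65). Hspb1 (-1.592) would not have been tested without its high DMF libraries at 4 h and is left out of these counts. The 2 members with CBD were Dnajb1 (-0.386) and Hsp90ab1 (-0.423). Of all genes, 16.4% passed the same test for DMF, 0.0% for MMF and 31.9% for CBD, in either direction. The 2 of 7 members that passed with CBD were not above that share. Both had a lower effect at 24 h, a direction in which 16.5% of all genes passed for CBD. Groups of 3 libraries were too small for a test of outlying samples.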

How the results depend on the processing

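Of 701 estimates of called members under alternatives, 0 changed direction. Of 1490 estimates of members that were not called, 72 had the other sign and 40 were called.

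The counts of called members in this part include Hspb1. The share of all genes called under each alternative is not given here, so these counts stand without a background. The counts that changed by more than 1.5 times were as follows. Without the filter on low values, LPS against DMSO at 4 h gave 0 (1 with it), the DMF difference between times 3 (5 with it) and the CBD difference 0 (2 with it). DESeq2 gave 2 for LPS against DMSO at 4 h. All 36 libraries in 1 fit gave 2 for LPS against DMSO at 4 h, LPS against EtOH at 24 h, DMF against LPS at 24 h, CBD against LPS at 24 h and DMF against MMF at 24 h (1 each otherwise). TMM scaling gave 1 for the CBD difference. The replicate block gave 2 for DMSO against EtOH at 4 h (0 without), 2 for DMF and 2 for CBD against LPS at 24 h, and 3 for DMF against MMF at 24 h. Leaving out both libraries numbered 3 gave 0 for DMF against LPS at 4 h. The cause was not tested. Smaller changes of a count with all 36 libraries in 1 fit were 7 in place of 5 for DMF against LPS at 4 h (Bag3, adjusted p = 0.0121, and Hsp90ab1, 0.0346), 6 in place of 4 for DMF against MMF at 4 h (Bag3, 0.00356, and Hsp90ab1, 0.0405), 7 in place of 5 for LPS at 24 h against 4 h and 7 in place of 6 for LPS with MMF over time. DESeq2 gave 5 for DMF against MMF at 4 h, 6 for LPS over time and 7 for LPS with MMF over time, and edgeR gave 7 for the latter and 4 for the DMF difference. Without the filter the counts over time were 2 in DMSO (3 with it), 5 in LPS with MMF (6) and 6 in LPS with CBD (7). Hspb1 was not called for the DMF difference by edgeR (0.0545) or DESeq2 (0.0986), which called Hsp90ab1 (0.0461) in its place.

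Beyond the blocked values given above, the pairing changed the call of Hspb1 in DMF against MMF at 4 h (adjusted p = 0.0337, called) and of Hspa8 in LPS with CBD over time (adjusted p = 0.0502, not called), where the numbers did not pair the libraries. The block changed no other call.

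Leaving out 1 library at a time gave 0 to 2 members for LPS against DMSO at 4 h, 1 to 5 for DMF against LPS at 4 h, 0 to 1 for LPS against DMSO and for LPS against EtOH at 24 h, 0 to 2 for DMF against LPS at 24 h, 1 to 2 for CBD against LPS and for DMF against MMF at 24 h, 1 to 4 for the DMF difference and 0 to 2 for the CBD difference. Depth limited Hspb1 (1 to 30 reads) and the HSP70 genes Hspa1a and Hspa1b (at most 4).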
